A study of Mus musculus with 4 samples.

Results

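The 4 RNA-seq libraries were made from 4T1 cells, an established carcinoma line of the mouse mammary gland. The AP-1, Egr1 and immediate-early genes Fos, Fosl1, Fosl2, Jun, Junb, Jund, Myc, Egr1, Ier3 and Ier5 were followed. They were taken by gene symbol, and all 10 were found among the 24411 genes of each table and passed the filter on low values that left 11167 genes for testing. Of the 4 libraries, 2 were labelled control and 2 CD95ko, meaning that the gene for the death receptor CD95 (Fas) had been targeted. Per the labels' protocols, the knockout cells came from a 4T1 line carrying Cas9 from a lentivirus and selected with blasticidin, which received a pair of guide RNAs aimed at deleting exon 9 of the gene, and single cells were then sorted, grown into clones and checked for the deletion by PCR. RNA came from a control, the Cas9 line and 2 clones, per the same protocols, while the titles leave it unsaid which of the 2 controls carries Cas9. Each library thus stands for a line or clone of its own, no clone was sequenced more than once, and p-values measure only the spread between these 4 libraries.

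Immediate-early genes are transcribed within minutes of a growth factor, cytokine or stress signal, without new protein synthesis, mostly through the MAP kinase cascade and serum response factor. FOS proteins pair with JUN proteins through a leucine zipper to form AP-1, which binds DNA, and since FOS proteins do not pair with themselves the mixture of subunits sets which dimers a cell can form. In mammary carcinoma cells the FOS relative FRA-1, encoded by Fosl1, is known for its part in motility and invasion, and MYC for driving ribosome assembly and growth.

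The values are TPM, transcript abundance per length scaled to the same total in each library, so levels of different genes can be compared within a library. Sequencing depth is unknown from TPM. Over the tested genes, TPM had a median of 16.3 in control 2 and 21.3 to 22.9 in the other 3 libraries. The targeted gene Fas was listed at 49.4 and 39.2 TPM in the controls, at 15.8 TPM in the library labelled CD95ko 1 and at 49.5 TPM in the library labelled CD95ko 2. Fas was therefore not lower in the library labelled CD95ko 2 than in the controls, a gene-level TPM does not show whether exon 9 is present, and every direction below refers to the libraries as labelled. The 5 epithelial markers (Epcam, Krt8, Krt18, Krt7 and Cdh1) were present in every library, with a summed level of 4361 and 4367 TPM in the controls against 7383 and 11577 TPM in the libraries labelled CD95ko 1 and 2, and their part in the results was not tested. All 3 endothelial markers and 4 of 5 leukocyte markers, Ptprc among them, were listed at 0 in all 4 libraries, Cd68 lay between 17.8 and 146 TPM, and the 5 fibroblast markers summed to at most 4.52 TPM.

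Between the groups, none of the 10 genes passed an adjusted p of 0.05 in limma, where 0.0537% of all tested genes did. At an unadjusted p under 0.05 there were 5 of the 10 (Fos, Fosl1, Jun, Ier5 and Myc), against 14.9% of all tested genes. Of these, 4 were lower in the libraries labelled CD95ko, against 5.68% of all tested genes lower at that p. Fos alone was higher, against 9.25% of all tested genes higher at that p. The groups did not overlap for 6 of the 10 genes, 5 lower (18.3% of all genes) and 1 higher (29.2%). Over 2-fold apart in all 4 pairs of a library labelled CD95ko with a control were Fosl1 and Myc on the lower side, against 1.96% of all genes, and Fos on the higher side, against 3.53%. The fold change lay below 0 for 6 of the 10, beside 4759 of all 11167 tested genes. The median of the 10 was -0.44 on the log2 scale, beside a median of 0.13 over all tested genes. In bulk RNA, fewer cells with a message and less of it per cell cannot be told apart. The dot plot of the 10 genes shows the separation library by library.

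**Figure D1:**
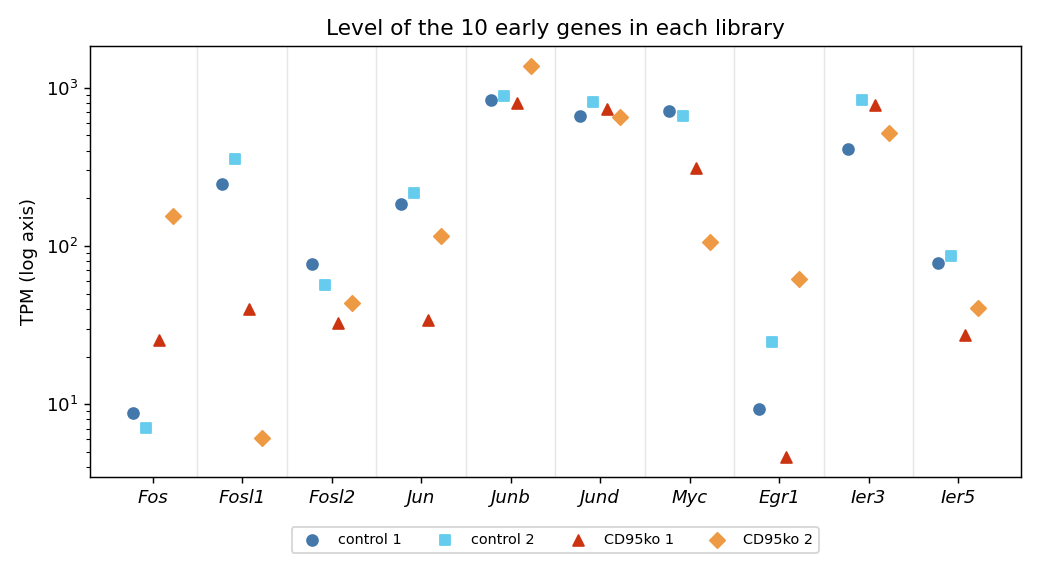
TPM of the 10 early genes on a log axis, 1 point per library, with the 2 controls in blue and the 2 libraries labelled CD95ko in red and orange. Fosl1, Fosl2, Jun, Myc and Ier5 lie lower and Fos higher in both libraries labelled CD95ko than in both controls, while Junb, Jund, Egr1 and Ier3 overlap.

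Among the FOS family, Fosl1 was lower and Fos higher in both libraries labelled CD95ko than in both controls, and Fos was above Fosl1 in the library labelled CD95ko 2 alone. Fosl1 (chromosome 19, 5447547 to 5455946, forward strand, GRCm38) was at 247 TPM in control 1, 354 TPM in control 2, 40.1 TPM in the library labelled CD95ko 1 and 6.07 TPM in the library labelled CD95ko 2. Both values labelled CD95ko were below both controls, and the mean was 13.0 times lower, at 23.1 ± 24.0 TPM against 300.5 ± 75.8 TPM (SD, n = 2 in each group). The log2 fold change of -4.12 ± 0.70 SE (95% interval -5.71 to -2.54) had an unadjusted limma p of 0.000248 and an adjusted p of 0.0676. The libraries labelled CD95ko differed from each other, the first at 6.60 times the level of the second. Without the library labelled CD95ko 1 the fold change of Fosl1 was -5.39, and without the library labelled CD95ko 2 it was -2.85. Fits on 3 libraries assume that the lone library varies like the other group. Over the settings with all 4 libraries the limma adjusted p of Fosl1 ranged from 0.0676 to 0.204.

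The level of Fosl1 has 1 limit from its position. In GENCODE M21, 1163 of its 2033 exonic bases are also covered by exons of Ccdc85b on the opposite strand, and the sources used here do not say that counting kept the strand. Ccdc85b was listed at 53.9 and 97.6 TPM in the controls, 37.4 TPM in the library labelled CD95ko 1 and 43.7 TPM in the library labelled CD95ko 2. Its level was under that of Fosl1 in the controls and above it in the library labelled CD95ko 2. In the library labelled CD95ko 1 Ccdc85b was just under Fosl1, at 37.4 TPM against 40.1 TPM. Its part in the values of Fosl1 was not tested.

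Fos, the prototype of the family, whose message normally lasts only minutes after a stimulus, was at 8.77 TPM in control 1, 7.06 TPM in control 2, 25.5 TPM in the library labelled CD95ko 1 and 155 TPM in the library labelled CD95ko 2. Both libraries labelled CD95ko were above both controls, and 1 of them held most of the difference. The mean was 11.4 times the control mean (90.5 ± 91.8 against 7.91 ± 1.21 TPM, SD, n = 2 in each group), with a log2 fold change of 2.86 ± 0.74 SE and a limma adjusted p of 0.159. Without the library labelled CD95ko 1 the fold change was 4.14 and without the library labelled CD95ko 2 it was 1.58. The range of the limma adjusted p of Fos over the settings with all 4 libraries was 0.159 to 0.285. Fosb, a close relative of Fos outside the 10 genes, was at 0.63 and 1.38 TPM in the controls, 0.83 TPM in the library labelled CD95ko 1 and 6.94 TPM in the library labelled CD95ko 2, so it was low everywhere and its groups overlapped.

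Fosl2, which encodes FRA-2, was at 76.6 and 56.5 TPM in the controls and at 32.4 and 43.5 TPM in the libraries labelled CD95ko 1 and 2. The groups did not overlap, and the log2 fold change was -0.79 ± 0.38 SE (95% interval -1.65 to 0.06, limma adjusted p = 0.368). Fosl2 carries the 1 EGR motif found in the promoter windows searched, shown here because EGR1 is among the genes followed. The RefSeq window of 250 bases before to 50 bases after the transcription start (GRCm38.p6) was found for 7 of the 10 genes, all but Fosl1, Egr1 and Myc. The letters GCGNGGGCG, searched on both strands, begin 79 bases before the start of Fosl2. The whole stretch shown lies at chr5:32136383-32136411 on the forward strand, with the motif in capitals.
Fosl2: ccggctgcgcGCGGGGGCGgaagggcgcg
The same letters occur in 5.55% of the 32851 promoter windows of that length.

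The mixture of FOS family messages can also be given as shares, which do not depend on how libraries are scaled. Fosl1 made up 74.2% and 84.5% of the summed TPM of Fos, Fosb, Fosl1 and Fosl2 in the controls, 40.5% in the library labelled CD95ko 1 and 2.86% in the library labelled CD95ko 2. The share of Fos was 2.63% and 1.68% in the controls, 25.8% in the library labelled CD95ko 1 and 73.3% in the library labelled CD95ko 2. By listed TPM, Fosl1 was thus the most abundant FOS family message in 3 of the 4 libraries and Fos in the fourth. The limit from the exons of Ccdc85b, given above, applies to this order. The ratio of Fosl1 to Fos was 28.2 and 50.1 in the controls and 1.57 in the library labelled CD95ko 1, and in the library labelled CD95ko 2 Fos was 25.6 times above Fosl1. Fosl2 held between 13.5% and 32.8%, with the smallest share in control 2 and the largest in the library labelled CD95ko 1. The summed TPM of the family came to 333 for control 1, 419 for control 2 and 98.85 and 212 for the libraries labelled CD95ko 1 and 2. An exact two-sided permutation test of 2 libraries against 2 cannot go below 0.33, and no test of these shares was run.

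**Figure D2:**
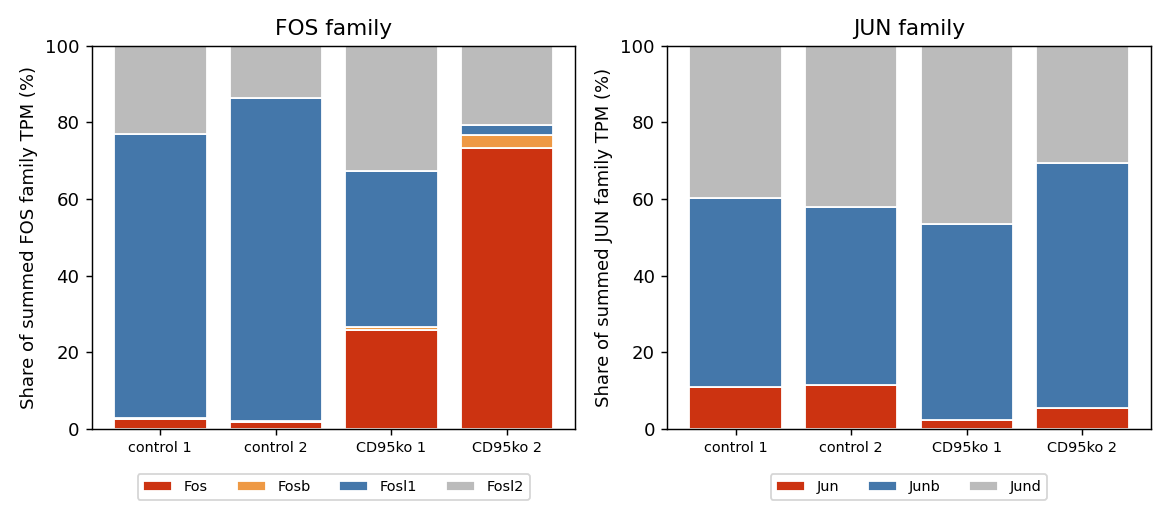
Stacked bars of the share of each gene in the summed TPM of its family, 1 bar per library, for the FOS family (left) and the JUN family (right). Fosl1 holds 74.2% and 84.5% in the controls and 2.86% in the library labelled CD95ko 2, where Fos holds 73.3%, while Junb and Jund hold most of the JUN family in all 4.

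Of the JUN family, which supplies partners of FOS proteins, Jun stood apart from Junb and Jund. Jun, which encodes the strongest activator of the family, was at 184 TPM in control 1, 216 TPM in control 2, 34.2 TPM in the library labelled CD95ko 1 and 116 TPM in the library labelled CD95ko 2. Both values labelled CD95ko were below both controls, with the mean 2.66 times lower (75.1 ± 57.9 against 200.1 ± 23.0 TPM, SD, n = 2 in each group). The log2 fold change was -1.64 ± 0.52 SE with a limma adjusted p of 0.213. Without the library labelled CD95ko 2 the fold change was -2.51 and without the library labelled CD95ko 1 it was -0.78. Over the settings with all 4 libraries the limma adjusted p of Jun ranged from 0.204 to 0.344. Exons of Junos, an antisense gene not analysed here, cover 232 of the 3189 exonic bases of Jun.

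The promoter window of Jun holds the variant AP-1 motif TGACATCA, shown because AP-1 is known to act on the Jun gene itself. It begins 45 bases before the start. The whole stretch shown lies at chr4:95052249-95052278 on the reverse strand (GRCm38.p6), with the motif in capitals.
Jun: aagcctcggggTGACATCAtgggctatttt
These letters were found in 3.62% of all windows on either strand, and in 1 of the 7 windows of the early genes. Neither the AP-1 motif TGANTCA (7.81% of all windows), the cyclic AMP response motif TGACGTCA (1.79%) or its variant TGACGTTT (0.39%), the E-box CACGTG (7.15%) nor the CArG box (1.63%) was found in any of the 7.

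Junb and Jund, which are weaker activators than JUN, were among the most abundant of the 10 messages in all libraries. Junb was at 829 and 888 TPM in the controls, 800.4 TPM in the library labelled CD95ko 1 and 1378 TPM in the library labelled CD95ko 2. The groups overlapped, and the log2 fold change of 0.29 ± 0.32 SE had a 95% interval of -0.44 to 1.03 (limma adjusted p = 0.709). Prdx2, whose exons cover 173 of the 2301 exonic bases of Junb on the opposite strand, was at 455 and 485 TPM in the controls and at 661 and 926 TPM in the libraries labelled CD95ko, and its part in the values of Junb was not tested. Jund lay between 655 and 805 TPM in the 4 libraries, lowest in the library labelled CD95ko 2 and highest in control 2. Its log2 fold change was -0.08 ± 0.28 SE (95% interval -0.71 to 0.54, limma adjusted p = 0.916), so a difference within about that interval could not be seen with these libraries. An antisense gene not analysed here, Gm11175, covers 877 of the 1668 exonic bases of Jund.

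Jun made up 11.0% and 11.3% of the JUN family in the controls, 2.19% in the library labelled CD95ko 1 and 5.40% in the library labelled CD95ko 2. Junb held 46.5% to 51.2% in both controls and the library labelled CD95ko 1, and 64.1% in the library labelled CD95ko 2. The family sum was 1677 TPM in control 1, 1909 TPM in control 2, 1562 TPM in the library labelled CD95ko 1 and 2149 TPM in the library labelled CD95ko 2, so the groups overlapped. With the lower FOS sum, the ratio of JUN to FOS messages was 5.04 and 4.56 in the controls, 15.8 in the library labelled CD95ko 1 and 10.1 in the library labelled CD95ko 2, so both controls were below both others.

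Of the other AP-1 partners, a list of 14 further leucine zipper genes with 10 tested, 0 passed the limma adjusted threshold, 3 were lower at an unadjusted p under 0.05 and 0 higher, against 5.68% and 9.25% of all tested genes, and the median log2 fold change was -0.50. Atf3, a stress-induced gene whose protein pairs with JUN, was at 235 TPM in control 1, 376 TPM in control 2, 50.3 TPM in the library labelled CD95ko 1 and 12.1 TPM in the library labelled CD95ko 2. Its log2 fold change was -3.53 ± 0.59 SE (limma adjusted p = 0.0676). The 4 values of Atf3 stood in the same order as those of Fosl1, highest in control 2 and lowest in the library labelled CD95ko 2. By Euclidean distance between the 4 log2(TPM + 1) values, each gene centred on its mean, Atf3 was the nearest of all tested genes to Fosl1 (distance 0.73), followed by Zc3h8 (1.01). Atf4, the effector of the integrated stress response, was at 1014 and 896 TPM in the controls and at 673 and 401 TPM in the libraries labelled CD95ko (limma adjusted p = 0.266). Mafk, a small MAF protein, was at 84.6 and 56.9 TPM against 39.9 and 25.9 TPM (limma adjusted p = 0.267).

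Myc (chromosome 15, 61985391 to 61990374, forward strand, GRCm38), which encodes the growth regulator MYC, was the second most abundant of the 10 messages in control 1. It was at 716 TPM in control 1, 659 TPM in control 2, 311 TPM in the library labelled CD95ko 1 and 106 TPM in the library labelled CD95ko 2. The controls lay close together and above both libraries labelled CD95ko, which differed from each other by 2.93 times. The mean was 3.29 times lower (209 ± 145 against 687 ± 40.0 TPM, SD, n = 2 in each group), with a log2 fold change of -1.91 ± 0.46 SE and a limma adjusted p of 0.147. Without the library labelled CD95ko 1 the fold change was -2.68 and without the library labelled CD95ko 2 it was -1.14. Over the settings with all 4 libraries the limma adjusted p of Myc ranged from 0.142 to 0.291. The forest plot gives the interval of each of the 10 genes.

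**Figure D3:**
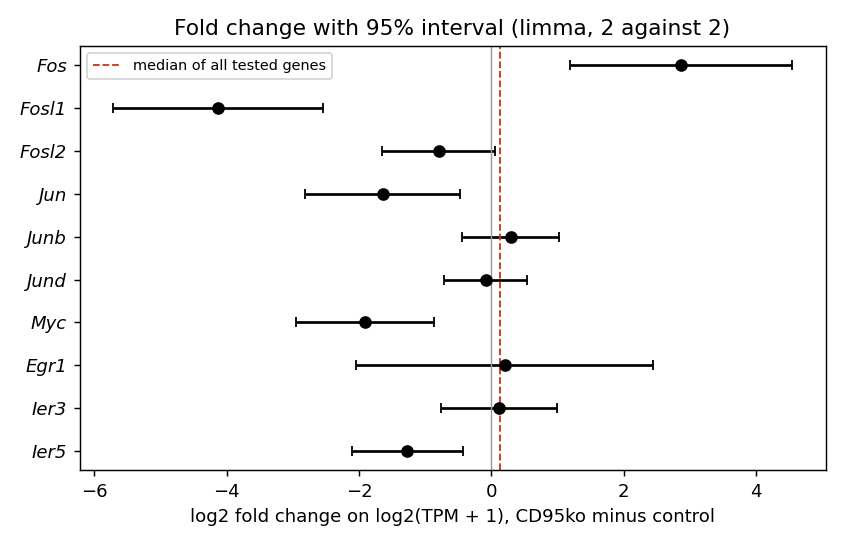
Log2 fold change of each early gene on the log2(TPM + 1) scale (points) with its 95% interval from limma (bars), and the median of all tested genes as a dashed line. The intervals of Fosl1, Jun, Myc and Ier5 lie below 0 and that of Fos above 0, while the interval of Egr1, -2.05 to 2.44, is the widest of the 10.

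MYC acts with MAX and is opposed by MXD and MNT proteins, which compete for MAX. Of 12 genes of this network, 11 were tested, 0 passed the limma adjusted threshold, and 3 were higher at an unadjusted p under 0.05 with 0 lower, against 9.25% and 5.68% of all tested genes. Their median log2 fold change was 0.84, beside 0.13 over all tested genes. Mxd4 was at 9.95 and 2.42 TPM in the controls and at 42.4 and 30.6 TPM in the libraries labelled CD95ko 1 and 2 (limma adjusted p = 0.145). Mxd1 was at 1.76 and 1.38 TPM against 6.00 and 9.07 TPM (limma adjusted p = 0.247), and Mnt at 19.5 and 11.2 TPM against 25.8 and 41.8 TPM (limma adjusted p = 0.331). The unadjusted limma p of Mnt was 0.0484 as reported and 0.0396 under robust eBayes. In the other settings with all 4 libraries it was above 0.05, from 0.0511 (pseudocount of 0.1) to 0.0627 (quantile normalization). Mxd4, Mxd1 and Mnt all encode antagonists of MYC and were named for their small p, and the groups did not overlap for any of them. Of the 11 tested genes of the network, 5 did not overlap on the higher side and 1 on the lower. The shares over all tested genes were 29.2% and 18.3%. Max itself was at 71.2 and 61.8 TPM in the controls and at 67.4 and 43.0 TPM in the libraries labelled CD95ko, with overlapping groups.

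Genes commonly described as activated by MYC were mostly at lower values in the libraries labelled CD95ko. Of 29 such genes, 28 were tested and their median log2 fold change was -0.91. A fold change below 0 was found for 26 of the 28, beside 4759 of all 11167 tested genes. Of these 28, 0 passed the adjusted threshold in limma, 14 were lower at an unadjusted p under 0.05 and 0 higher, against 5.68% and 9.25% of all tested genes. With 1 library left out, 11 to 19 were lower at that p when a library labelled CD95ko was left out and 3 or 4 when a control was, and the number below 0 was 23 to 28. Odc1, the rate-limiting enzyme of polyamine synthesis, was at 925 and 1515 TPM in the controls and at 286 and 339 TPM in the libraries labelled CD95ko 1 and 2 (limma adjusted p = 0.0676). Nop56 and Nop58 encode core proteins of box C/D small nucleolar particles, which guide the methylation of ribosomal RNA. Nop58 was at 597 and 670.0 TPM against 256 and 89.6 TPM (limma adjusted p = 0.136), and Nop56 at 699.9 and 685 TPM against 329 and 144 TPM (limma adjusted p = 0.144). Nme1, a nucleoside diphosphate kinase, was at 601 and 621 TPM against 273 and 171 TPM (limma adjusted p = 0.136). For Nop56, Nop58 and Nme1, as for Myc, the library labelled CD95ko 2 was the lowest of the 4. Between the libraries labelled CD95ko, 11 of the 28 genes were over 2 times lower in the second and 0 over 2 times higher, against 13.4% and 9.9% of all tested genes.

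Egr1, a zinc finger factor induced along with Fos, varied more among these libraries than between the groups. It was at 9.34 TPM in control 1, 24.8 TPM in control 2, 4.63 TPM in the library labelled CD95ko 1 and 61.4 TPM in the library labelled CD95ko 2. The libraries labelled CD95ko were the lowest and the highest of the 4, and the second was 13.3 times above the first. The log2 fold change of 0.20 ± 0.99 SE had a 95% interval of -2.05 to 2.44 (limma adjusted p = 0.948). The value was -1.54 without the library labelled CD95ko 2 and 1.93 without the library labelled CD95ko 1.

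Among NAB corepressors of EGR proteins and genes commonly described as EGR1 targets, 12 of 15 were tested, 0 passed the limma adjusted threshold, 3 were lower and 1 higher at an unadjusted p under 0.05, against 5.68% and 9.25% of all tested genes, and the median was -0.13. Nab1 was at 29.9 and 26.8 TPM in the controls and at 13.4 and 11.5 TPM in the libraries labelled CD95ko (limma adjusted p = 0.277). Hspa5, an endoplasmic reticulum chaperone, was at 2018 and 1914 TPM against 1050 and 415 TPM (limma adjusted p = 0.161). Icam1, an adhesion molecule, was at 8.09 and 8.35 TPM in the controls, while both libraries labelled CD95ko list it at 0 (limma adjusted p = 0.108). Fn1, encoding fibronectin, was the 1 gene higher at that p. It was at 347 and 151 TPM in the controls and at 329 and 921 TPM in the libraries labelled CD95ko. The groups overlapped (limma adjusted p = 0.313). The unadjusted limma p of Fn1 was 0.0414 as reported. In the other settings with all 4 libraries it was above 0.05, from 0.0622 (pseudocount of 0.1) to 0.108 (equal library medians).

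The 2 remaining genes, Ier3 and Ier5, encode small early response proteins that are not transcription factors of the AP-1 type. Ier3, a survival-related gene induced by ERK and NF-κB signals, was at 408 TPM in control 1, 831 TPM in control 2, 775 TPM in the library labelled CD95ko 1 and 515 TPM in the library labelled CD95ko 2. The controls were the lowest and the highest, and the log2 fold change was 0.12 ± 0.39 SE (95% interval -0.76 to 1.00, limma adjusted p = 0.914). Ier5, whose protein is known to act on heat shock factor HSF1, was at 77.6 and 86.4 TPM in the controls and at 27.5 and 40.3 TPM in the libraries labelled CD95ko 1 and 2. The groups did not overlap and the libraries labelled CD95ko were close, with the mean 2.42 times lower (33.9 ± 9.09 against 82.0 ± 6.17 TPM, SD, n = 2 in each group). Its log2 fold change was -1.27 ± 0.37 SE (95% interval -2.11 to -0.43, limma adjusted p = 0.187).

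The order of the 10 genes by TPM changed mainly for Fosl1, Fos and Myc. Junb was the highest in all 4 libraries, and Jund and Ier3 were among the 4 highest in each. Fosl1 ranked 5 in both controls and in the library labelled CD95ko 1 and 10 in the library labelled CD95ko 2. Fos ranked 10 in both controls, 9 in the library labelled CD95ko 1 and 4 in the library labelled CD95ko 2. Myc ranked 2 in control 1 and 4 in control 2, so its rank differed between the controls too. It ranked 4 in the library labelled CD95ko 1 and 6 in the library labelled CD95ko 2. Neighbours in this order, such as Junb, Jund and Ier3 in control 2 at 888, 805 and 831 TPM, are not set apart by the spread between libraries.

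The 2 libraries labelled CD95ko differed from each other for 5 of the 10 genes by over 2 times on the log2(TPM + 1) scale, against 23.3% of all tested genes. Fos, Jun and Egr1 were higher in the second (9.9% of all genes) and Fosl1 and Myc lower (13.4%). Between the controls, 2 of the 10, Egr1 and Ier3, were over 2 times apart and higher in control 2, where 14.4% of all genes were apart and 1.84% were higher in control 2. With 1 library on each side these differences have no test.

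The wider set of immediate-early genes, 40 genes outside the 10 with 35 tested, had values in both directions. In limma 1 passed the adjusted threshold, lower, against 0.0537% of all tested genes. At an unadjusted p under 0.05, 10 were lower and 3 higher, against 5.68% and 9.25% of all tested genes, so the number higher was near the background. The median log2 fold change was -0.16. With 1 library left out the number lower at that p was 9 to 11 without a library labelled CD95ko and 3 or 4 without a control. Plk2, a serum-inducible kinase, fell from 258 and 260 TPM in the controls to 38.0 and 36.8 TPM. Its log2 fold change was -2.76 ± 0.31 SE and its limma adjusted p was 0.0349. This call was kept under robust eBayes and without either library labelled CD95ko and was lost in the 8 other alternatives, among them the replicate block (limma adjusted p = 0.0853) and leaving out control 1 or control 2, with adjusted p-values from 0.000124 to 0.875 in all. Hbegf, an ErbB ligand, was at 196 and 224 TPM in the controls and at 52.1 and 58.0 TPM in the libraries labelled CD95ko (limma adjusted p = 0.0676). Csrnp1 was at 40.7 and 38.2 TPM against 7.69 and 8.04 TPM (limma adjusted p = 0.109). Id1, a dominant-negative partner of helix-loop-helix factors, was at 20.3 and 14.3 TPM against 55.7 and 128 TPM (limma adjusted p = 0.136). These 4 genes, named for the smallest p of their list, had groups that did not overlap. Plk2, Hbegf and Csrnp1 were at close values in both libraries labelled CD95ko. Of the 35 tested genes of the list, 13 did not overlap on the lower side and 6 on the higher. The shares over all tested genes were 18.3% and 29.2%.

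**Figure D4:**
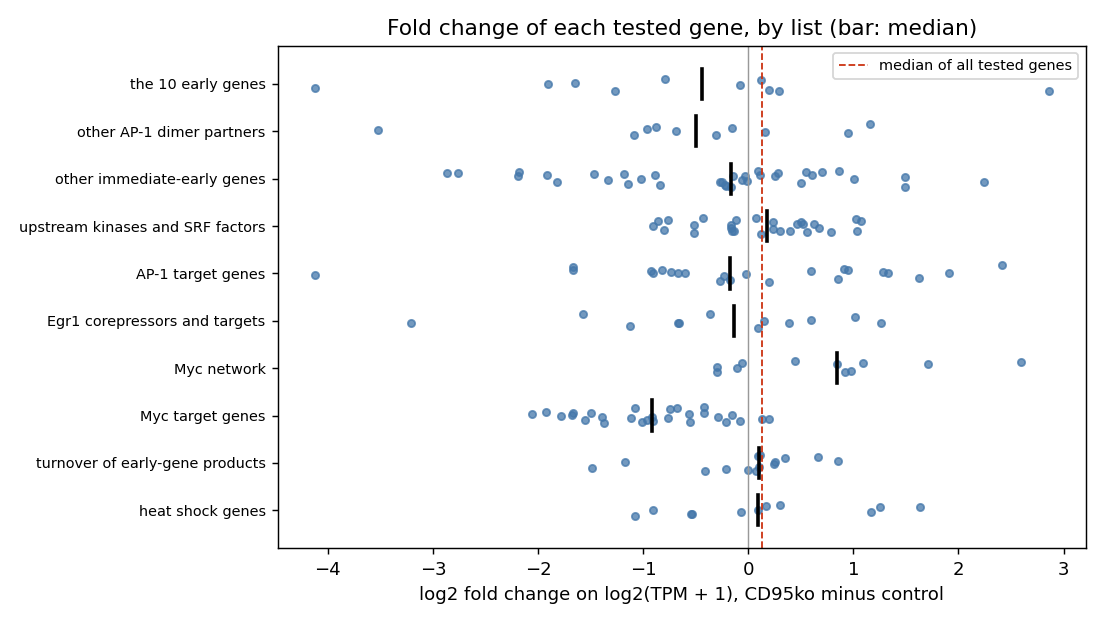
Log2 fold change on the log2(TPM + 1) scale of each tested gene (points, jittered vertically) by list, with the median of each list as a black bar and that of all tested genes as a dashed line. The MYC target list has its median at -0.91 and the MAX network list at 0.84, while the upstream kinases, at 0.18, lie near the median of all genes at 0.13.

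Upstream of these genes, RAS, RAF, MEK and MAP kinases, serum response factor and its partners were measured as messages only. Of 29 genes 28 were tested, 0 passed the limma adjusted threshold, 2 were higher and 0 lower at an unadjusted p under 0.05, against 9.25% and 5.68% of all tested genes, and the median was 0.18. Mapk3, which encodes ERK1, was at 72.2 and 84.6 TPM in the controls and at 126 and 204 TPM in the libraries labelled CD95ko (limma adjusted p = 0.239). Rps6ka1, which encodes the ERK-activated kinase RSK1, was at 36.2 and 19.6 TPM against 65.1 and 50.6 TPM (limma adjusted p = 0.284). Srf was at 42.4 and 38.6 TPM against 34.0 and 23.1 TPM, with an unadjusted limma p of 0.232.

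Downstream, 27 genes commonly described as AP-1 targets, of which 1 is Fosl1 itself, had 23 tested members. In limma 0 passed the adjusted threshold, 6 were lower and 4 higher at an unadjusted p under 0.05, against 5.68% and 9.25% of all tested genes, and the median was -0.17. Plaur, the receptor of urokinase, was at 83.0 and 162 TPM in the controls and at 33.8 and 37.9 TPM in the libraries labelled CD95ko (limma adjusted p = 0.147). Mmp14, a membrane metalloproteinase, was at 130.1 and 53.0 TPM against 194 and 345 TPM (limma adjusted p = 0.185). Itgb6, an integrin subunit, was at 2.45 and 1.61 TPM against 13.9 and 7.46 TPM (limma adjusted p = 0.217). The list thus held genes on both sides, with Plaur lower and Mmp14 and Itgb6 higher in both libraries labelled CD95ko than in both controls. Of its 23 tested genes, 8 did not overlap on the lower side and 6 on the higher, against 18.3% and 29.2% of all tested genes.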

How the data were processed

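Each of the 4 libraries was deposited as a table of TPM per gene symbol, which the authors scaled to the same total in each library, per the file headers. Per the submitters' processing notes the tools were STAR 2.6.0 and RSEM 1.3.0 with the build mm10, with no role or order given, and the annotation is not given in the sources used here. Oligo(dT) beads were used to take up mRNA, and its fragments were tailed and amplified by PCR in the manner of SMART-seq2, per the labels' protocols, so PCR copies cannot be told from separate molecules. TPM keeps no read number, so counting intervals and count tests were not applicable.

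A gene was tested where 2 or more libraries had a TPM of 1 or more. On log2(TPM + 1), the groups given by the sample titles were compared by limma 3.58.1 (R 4.3.3), using eBayes with a trend on the mean. Tests were two-sided, p-values were adjusted over all tested genes by Benjamini-Hochberg, and the threshold was 0.05. Fold changes on this scale understate the change of weakly expressed genes. The procedure was tested on simulated data drawn with the means and variances fitted here. Each gene was drawn independently, unlike clones that can differ in many genes together, so this checks the computation only. The 10 genes and the lists were chosen with earlier results of these data known. Genes named from a list are up to 4 with the smallest unadjusted p under 0.05 and any past the adjusted threshold, and Max, Srf, Fosb, Ccdc85b and Prdx2 were named besides. Of these, Max, Srf, Ccdc85b and Prdx2 were chosen after their values were seen. For 5 list genes, older symbols were found through RefSeq synonyms. Gene positions and overlaps are from GENCODE M21 (GRCm38) and promoter windows from RefSeq (GRCm38.p6). Of 25-base stretches of the longest transcript of each of the 10 genes, at most 0.34% occurred in a transcript of another gene.

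The alternatives were a pseudocount of 0.1, no filter, no variance trend, robust eBayes, quantile normalization, equal library medians, the replicate number as a block and leaving out each library in turn.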

Additional observations from a re-analysis of the deposited data

How the results depend on the processing

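The number of the 10 early genes past the limma adjusted threshold was 0 in every setting that used all 4 libraries, and 0 to 3 with 1 library left out (3 without the library labelled CD95ko 1, 2 without the library labelled CD95ko 2). The number at an unadjusted p under 0.05 was 5 as reported and 5 or 6 with all 4 libraries, and 0 to 7 with 1 left out. Fits on 3 libraries have 1 residual degree of freedom and take the spread from the group that keeps 2 libraries. Without a library labelled CD95ko that spread comes from the controls. For Fos, Fosl1, Jun and Myc the controls were closer to each other than the libraries labelled CD95ko were. The fold changes of Fos, Fosl1, Fosl2, Jun, Ier5 and Myc kept their direction in every setting. The direction reversed for Egr1 (-0.0011) and Ier3 (-0.082) under equal library medians, and with 1 library left out the log2 fold change ranged from -1.54 to 1.93 for Egr1, from -0.39 to 0.63 for Ier3, from -0.10 to 0.68 for Junb and from -0.22 to 0.056 for Jund. The median over the 10 genes ranged from -1.07 to -0.38, and the median over all tested genes moved from 0.13 to 0.002 under quantile normalization and to -0.07 under equal medians. At an unadjusted limma p under 0.05, 1033 genes of the whole table were higher and 634 lower as reported, against 967 and 895 under quantile normalization and 807 and 1041 under equal medians. The difference in the share of Fosl1 in the FOS family, -57.6 percentage points, ranged from -76.5 to -38.8 with 1 library left out. The number of MYC target genes lower at an unadjusted p under 0.05 ranged from 3 to 19 and that of other immediate-early genes from 3 to 11 with 1 library left out, which was tried after seeing the data. The cause of these changes was not tested. Of all tested genes, 6 passed the adjusted threshold as reported and 52 under robust eBayes. There were 0 at a pseudocount of 0.1, without a filter, without a trend, under either scaling and without either control, but 1034 without the library labelled CD95ko 1 and 194 without the library labelled CD95ko 2. Of the 28 genes named from the lists, Plk2 was the 1 past the threshold as reported, 19 others passed it without the library labelled CD95ko 1, 6 without the library labelled CD95ko 2 and 2 under robust eBayes.

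The replicate numbers in the titles were not taken to pair the libraries. Deviations of same-numbered libraries correlated at -0.081 over genes. Differences between lines and clones enter these deviations, so the value cannot show whether same-numbered libraries were paired. With the replicate block 0 of the 10 genes passed the adjusted threshold and the same 5 had an unadjusted p under 0.05, and 2 genes of the whole table passed. Depth is unknown, so a gene listed at 0 may lie below the reach of a library.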

Other observations

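A list of 14 genes covers the turnover of early-gene products, from RNA-binding proteins acting on AU-rich messages to ubiquitin ligases of JUN and MYC. All 14 were tested, 0 passed the limma adjusted threshold, 1 was lower and 0 higher at an unadjusted p under 0.05, against 5.68% and 9.25% of all tested genes, and the median log2 fold change was 0.10, beside 0.13 over all tested genes. Hnrnpd, which encodes the AU-rich element binding protein AUF1, was at 44.2 and 60.2 TPM in the controls and at 12.5 and 25.2 TPM in the libraries labelled CD95ko 1 and 2 (log2 fold change -1.48 ± 0.46 SE, limma adjusted p = 0.209).

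Heat shock genes, 11 of 12 tested, had 3 members higher and 2 lower at an unadjusted limma p under 0.05, against 9.25% and 5.68% of all tested genes, and 0 past the adjusted threshold. Hsp90ab1, a constitutive cytosolic chaperone, was at 1994 and 1844 TPM in the controls and at 3814 and 5501 TPM in the libraries labelled CD95ko (limma adjusted p = 0.144), and Hspa8 at 985 and 913 TPM against 1493 and 3042 TPM (limma adjusted p = 0.207). Hspe1, a mitochondrial chaperonin, was at 707 and 888 TPM against 465 and 300.4 TPM (limma adjusted p = 0.187). Like the other gene of this list lower at that unadjusted p, it is also on the MYC target list. Hspa1b was at 36.8 and 20.1 TPM against 83.7 and 89.9 TPM (limma adjusted p = 0.147), and its near-identical copy Hspa1a was listed at 0 in all 4 libraries, so the level of Hspa1b is uncertain. The median log2 fold change of the list was 0.09, beside 0.13 over all tested genes, with 6 of the 11 above 0 and 5 below. The summed TPM of the list, to which its most abundant genes add most, came to 6490 for control 1 and 6367 for control 2. It was 8414 and 10234 for the libraries labelled CD95ko 1 and 2.

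By the same distance over 4 libraries, the tested genes nearest to Myc were Coq10b (0.18) and Fabp5 (0.23). Those nearest to Jun were Jag2 (0.20) and Nsun6 (0.23), and those nearest to Ier5 were Zfp689 (0.10) and Chek1 (0.12). Fosl2 had Ankrd42 and Psmc3ip (0.10 each), and Ier3 had Usmg5 (0.093) and Lnpep (0.13). Fos had 5730405O15Rik (0.37) and Tgm1 (0.46), both listed at 0 in control 2. Egr1 had Ptges3l (0.49) and Cahm (0.53), both listed at 0 in the library labelled CD95ko 1. With 4 libraries and 11167 genes, such distances are descriptions only.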
